A study of Homo sapiens with 2 samples.

Results

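Oligosaccharyltransferase is the membrane enzyme of the endoplasmic reticulum that moves a preassembled sugar chain from its lipid carrier onto asparagine residues of new proteins, the first step of N-glycosylation. The measurements here concern 10 of its subunit genes, RPN1, RPN2, DDOST, STT3A, STT3B, DAD1, OSTC, OST4, TUSC3 and MAGT1, taken by gene symbol from a table of 28038 genes. The set was chosen by the measured drop of RPN2 between the same libraries that are described here, so the RPN2 difference is a description and supports nothing further. RNA came from cells labelled OVCAR-3, an established human ovarian carcinoma line. In 1 library the cells had the genotype control and carried an empty viral vector, and in the other they had the genotype overexpressing IGF2BP3, an RNA-binding protein. Time, dose and clone number of the vector cells were not given in the sources used here. With 1 library per group there was no replicate error and no test between the conditions, and every difference below is between these 2 libraries. In bulk RNA, fewer cells with a transcript and less transcript per cell cannot be told apart.

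The human enzyme exists in 2 forms that differ in their catalytic subunit. STT3A works beside the protein translocation channel on chains that are still being made, with OSTC and KRTCAP2 as its own accessory subunits. STT3B reaches sites that STT3A has missed, and it carries TUSC3 or MAGT1, thioredoxin-like subunits that hold on to cysteine-containing substrates. RPN1 and RPN2 (the ribophorins), DDOST, DAD1, OST4 and TMEM258 belong to both forms.

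Counts over all listed genes came to 43190215 (control) and 48017861 (overexpression). IGF2BP3, the gene that the labels name, had 2944 control counts against 6376 under overexpression, or 1.96 times as many after scaling (95% interval 1.88 to 2.05). FASN, which the title of the series names, had 22083 and 26594 counts, a ratio of 1.09 (1.07 to 1.11). Of 8 epithelial markers 7 were listed, and 6 of these lay under 10 CPM (a gene's counts scaled to library size) in both libraries, with CDH1 at 2 and 2 counts and EPCAM at 57 and 56. The exception was KRT18 at 103 and 102 CPM, which made up most of the epithelial sum. Of 8 markers of serous ovarian carcinoma only 4 were listed, and all 4 lay under 10 CPM, among them PAX8 at 28 and 32 counts. Of the 6 mesenchymal markers 3 lay under 10 CPM, while VIM stood at 2175 and 2149 CPM and made up most of that list's sum. Summed epithelial markers came to 109 CPM in the control and 107 CPM in the overexpression library, serous markers to 4.92 and 4.89 CPM, and mesenchymal markers to 2250 and 2223 CPM. Of 7 leukocyte and endothelial markers 4 were listed, and these held at most 4 counts each. Apart from KRT18, the listed epithelial and serous markers were at low levels in both libraries. The sums differed little between the libraries, and the part of cell identity in the results was not tested.

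RPN2 (ENSG00000118705) encodes ribophorin II, a membrane subunit of both forms. It lies at chr20:37178410-37241623 on the plus strand (GRCh38, GENCODE 29). Its first coding exon lies opposite an exon of MROH8, a gene on the minus strand, which is not analysed here. The overlap spans 147 bases (chr20:37179223-37179369), 5.22% of all RPN2 exon bases, and includes the start codon. That share refers to the 2819 exon bases of GENCODE 29, while the deposited counts and FPKM imply a length of 3346 bases. The gene model that was counted thus differs, and the share in it was not determined. The 23 bases from the start codon onwards are shown because this is the place where reads of both genes could meet. They are taken from the RefSeq promoter table (GRCh38.p14, plus strand, chr20:37179357-37179379), with capitals for the 13 coding bases of the exon that lie opposite MROH8 and lower case for the start of the intron.
RPN2 start: ATGGCGCCGCCGGgtgaggagtt

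RPN2 had 5563 control counts and 313 counts under overexpression. Scaled for library size, these were 128 and 6.54 CPM, and the FPKM deposited by the authors were 38.5 and 1.95. The overexpression library was thus 19.6-fold lower (95% counting interval 17.5 to 22.1), a ratio of 0.0509 (0.0453 to 0.0571). On the log2 scale of CPM plus 1 the difference was -4.10, the lowest of the 14157 genes that held 50 or more counts in the pair of libraries. Only 1 other gene among these lay as far from 0 in either direction. The authors' deposited log2 fold change was -4.30. Adding 1 CPM makes the value of -4.10 smaller in size, so the values are not directly comparable. The level left was well above the floor of 3 counts, or 0.0692 CPM (control) and 0.0627 CPM (overexpression). Reads assigned to RPN2 were thus fewer in the overexpression library but still detected.

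**Figure D1:**
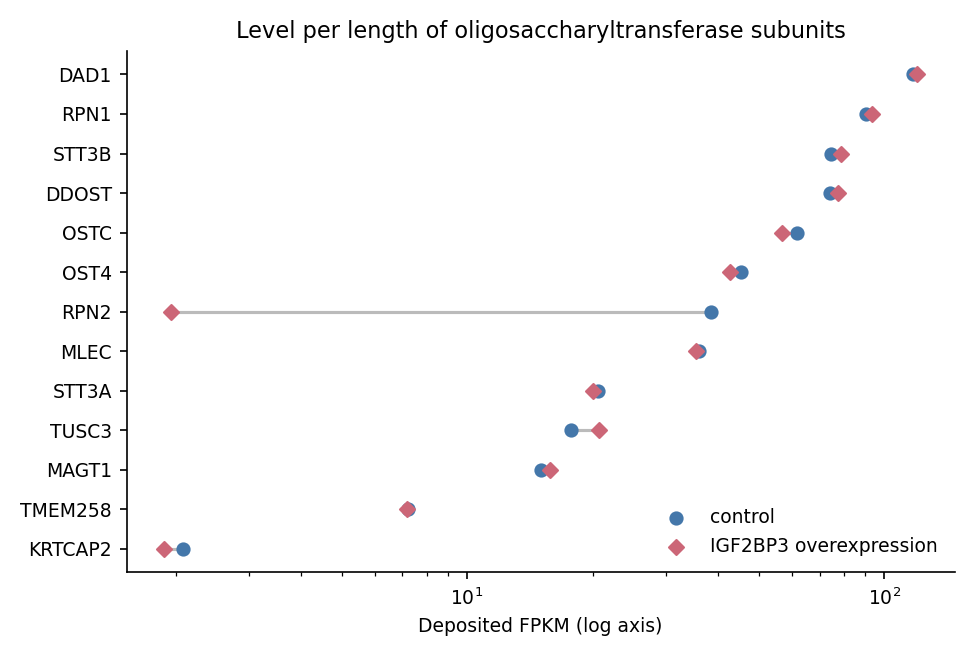
Deposited FPKM (horizontal log axis) of the 10 subunit genes and of TMEM258, KRTCAP2 and MLEC in the control library (circles) and the IGF2BP3 overexpression library (diamonds), 1 library each. The points of RPN2 lie at 38.5 and 1.95 FPKM, while those of the other genes nearly coincide.

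The other ribophorin did not share the low value. RPN1, which contacts the ribosome side of the enzyme, had 15491 control counts and 17772 under overexpression. Its ratio was 1.04 (1.02 to 1.06). Counting intervals of this kind cover counting error only, and they lay on one side of 1 in 41.4% of the 14157 genes. DDOST, a further subunit of both forms, had 8735 and 10122 counts, a ratio of 1.05 (1.02 to 1.08). Part of its exon bases belong also to PINK1-AS on the same strand, which had 190 and 205 counts. RPN1 and DDOST were slightly higher in the overexpression library, in which RPN2 was lower.

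DAD1 and OST4 are small membrane subunits of both forms. DAD1 had 3853 and 4382 counts in the control and overexpression libraries, with a ratio of 1.03 (0.986 to 1.08). OST4 had 1177 and 1227 counts, with a ratio of 0.944 (0.870 to 1.02). Neither interval left out 1. OST4 shares 151 exon bases with AGBL5 on the other strand, and AGBL5 had 1079 and 1194 counts.

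The ratios of the catalytic subunits were both near 1. STT3A had 6574 counts in the control and 7083 under overexpression, a ratio of 0.975 with an interval that included 1 (0.943 to 1.01). STT3B had 16100 and 18917 counts, a ratio of 1.06 (1.04 to 1.09). The ratio of STT3B to STT3A was 1.09 times as high in the overexpression library (95% counting interval 1.05 to 1.13). This is a small difference between single libraries.

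The accessory subunits of the forms differed little between the libraries. OSTC, which belongs to the STT3A form, had 4310 and 4426 counts and a ratio of 0.930 (0.891 to 0.970), the only subunit besides RPN2 with its whole interval below 1. Of the 31-base words of OSTC transcripts, 17.8% occur in some other gene, most often in the pseudogene OSTCP1, so its counts are less certain. TUSC3 of the STT3B form had 3970 counts in the control and 5155 under overexpression, a ratio of 1.18 (1.13 to 1.23), the highest of the 10 genes. MAGT1, its alternative in that form, had 4428 and 5164 counts and a ratio of 1.06 (1.01 to 1.10). The ratio of TUSC3 to MAGT1 was 1.11 times as high in the overexpression library (1.05 to 1.18). For TUSC3, 17.2% of all genes lay at least as far from 0 on the log2 scale.

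**Figure D2:**
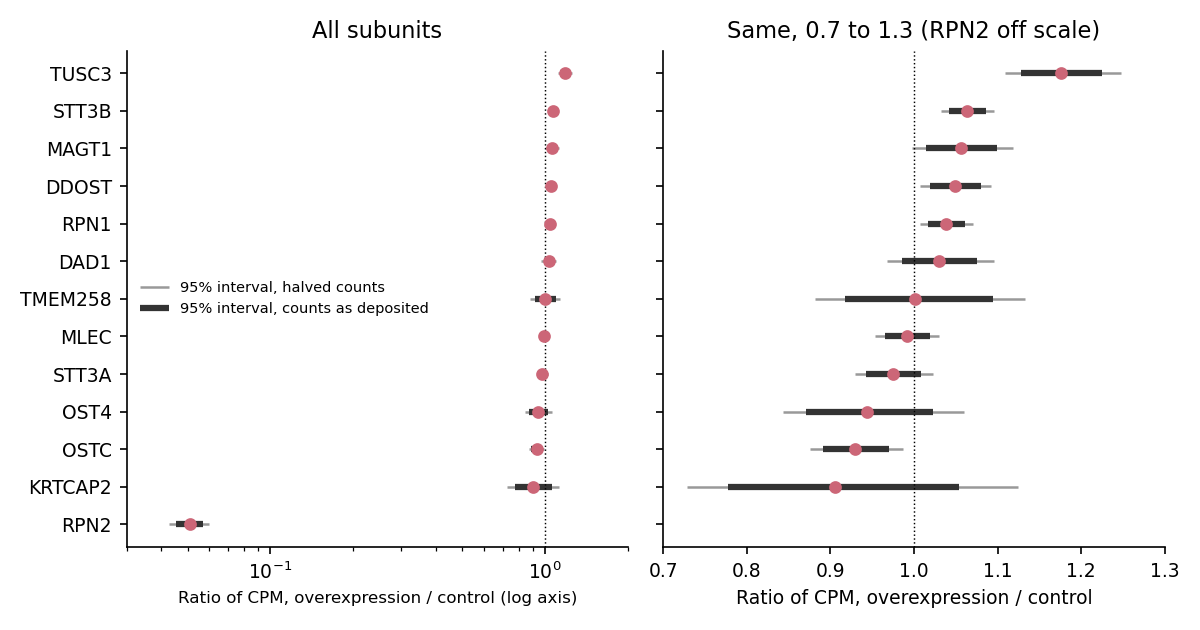
Ratio of CPM, overexpression over control library, for each subunit gene with 95% counting intervals from counts as deposited (thick lines) and from halved counts (thin lines), on a log axis at left and enlarged at right. RPN2 lies at 0.0509 and the 9 other members between 0.93 and 1.18.

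Set against RPN2, the 9 other members had a median log2 difference of 0.054, beside 0.004 for all 14157 genes. Of the 9, 6 were above 0 and 3 below. By the rule of at least 1.5-fold on the CPM plus 1 scale, 1 of the 10 members was lower, RPN2 itself, where 0.643% of all genes were lower by that rule. None of the 10 was higher by it, against 1.02% of all genes. Intervals lay wholly above 1 in 5 of the 9, wholly below 1 in 1 and included 1 in 3. That is 6 of 9 on one side, beside 41.4% of genes. These shares are not matched for depth, and counting intervals are narrower for genes with more counts. The 9 members held from 1177 (OST4) to 16100 (STT3B) control counts, while the 14157 genes include rows with far fewer. Whether the 9 differ from genes of like depth was not tested. Counts from 1 to 20 were even more often than odd (64.1% and 63.3% of them), and whether read mates were counted separately was not tested. Intervals were therefore also taken from halved counts. These lay on one side in 5 of 9 members and in 26.8% of all genes, again without matching for depth.

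**Figure D3:**
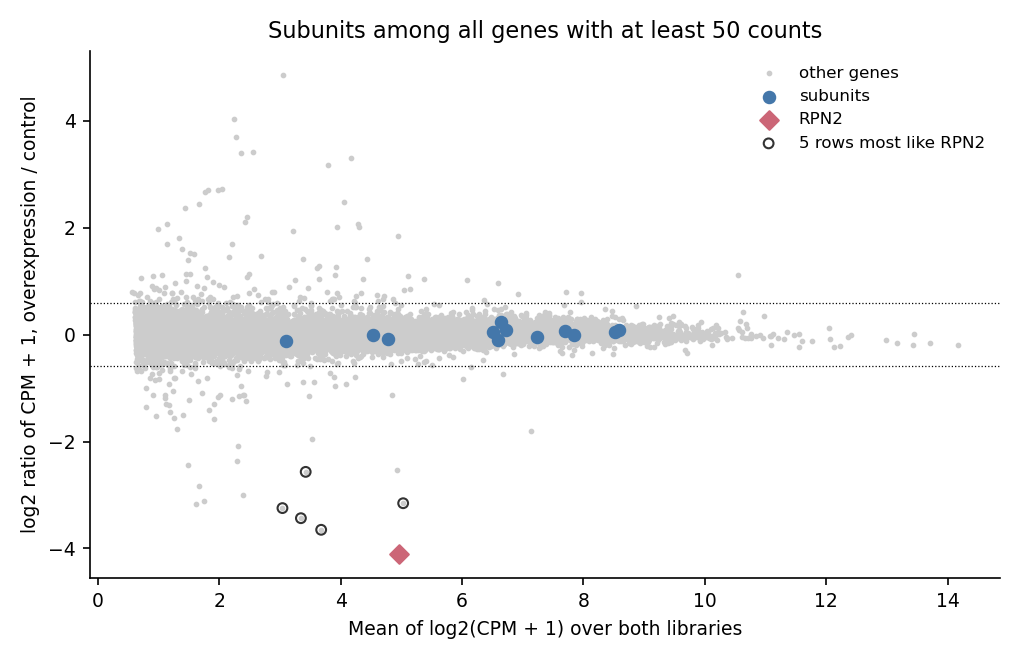
Log2 difference on the CPM plus 1 scale (vertical), against the mean level over both libraries (horizontal) for 14157 genes, with the subunits as filled circles, RPN2 as a diamond and the 5 rows most like it as open circles. Dotted lines mark 1.5-fold in each direction, and only RPN2 among the subunits lies outside them.

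Of the subunits outside the 10, TMEM258 had 959 and 1061 counts (ratio 1.00, 0.917 to 1.09). KRTCAP2 had 344 counts in each library (0.905, 0.777 to 1.05). MLEC, the lectin malectin that is found beside the enzyme, had 10002 and 10953 counts (0.991, 0.965 to 1.02). None of the 3 was 1.5-fold different. Each shares exon bases with neighbouring genes, and whether reads of those genes contribute was not tested.

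Levels per length, which allow genes to be compared within a library, gave RPN2 a middle place in the control. The deposited FPKM of the 10 genes came to a sum of 556 (control) and 528 (overexpression). RPN2 made up 6.93% of that sum in the control and 0.369% in the overexpression library, moving from the seventh to the last place of 10. The other 9 genes ranged from 15.1 FPKM (MAGT1) to 117 FPKM (DAD1) in the control and from 15.8 to 120 FPKM in the overexpression library. RPN2 stood at 0.426 of the FPKM of RPN1 in the control and at 0.0209 of it in the overexpression library. By FPKM, STT3B was 3.61 times STT3A in the control and 3.93 times in the overexpression library, and TUSC3 was 1.17 and 1.31 times MAGT1. By counts, TUSC3 was 0.897 times MAGT1 in the control and 0.998 times in the overexpression library. The deposited counts and FPKM imply 6801 bases for MAGT1, where the GENCODE exons hold 4862, while both lengths are 5190 for TUSC3. The order of TUSC3 and MAGT1 per length thus depends on the gene model, and which model applies was not tested.

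If RPN2 had followed the median ratio of its partners, 6382 counts would stand in the overexpression library. The 313 present are 4.9% of that number, and the loss amounted to 5280 counts on the scale of the control library. A search of the table for these reads began with the symbol and the position. Only 1 row carried the symbol RPN2, none carried an RPN2 pseudogene symbol, and no row with a known position overlapped RPN2. Of 2983 words of 31 bases in RPN2 transcripts, 120 (4.02%) occurred in another gene, and that gene was MROH8, opposite the first exon. MROH8 had no row among those searched, so whether reads of RPN2 were assigned to it was not tested.

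Of the 28 other rows within 1 Mb, 17 held at least 50 counts. The nearest on each side were RBL1, 82.4 kb before RPN2, with 2690 and 3210 counts (ratio 1.08), and MANBAL, 48.0 kb after it, with 22 and 12 counts. The largest gain was in NDRG3, from 4106 to 5016 counts, or 435 scaled counts, 8.23% of the loss. All rows that gained summed to 1139 scaled counts, 21.6% of the loss. The largest other loss in the window was that of MYL9, from 20085 to 19724 counts, a ratio of 0.889. None of the 17 rows was 1.5-fold different. They ranged from -0.19 (VSTM2L) to 0.39 (SRC, 217 and 328 counts) in log2 difference, with a median of 0.012. EPB41L1, AAR2, DLGAP4, TGIF2, RAB5IF, DSN1, SOGA1, SAMHD1, BLCAP, CTNNBL1, TTI1 and RPRD1B lay between these bounds. None of the 28 rows searched around RPN2 therefore gained a number of counts near the loss.

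**Figure D4:**
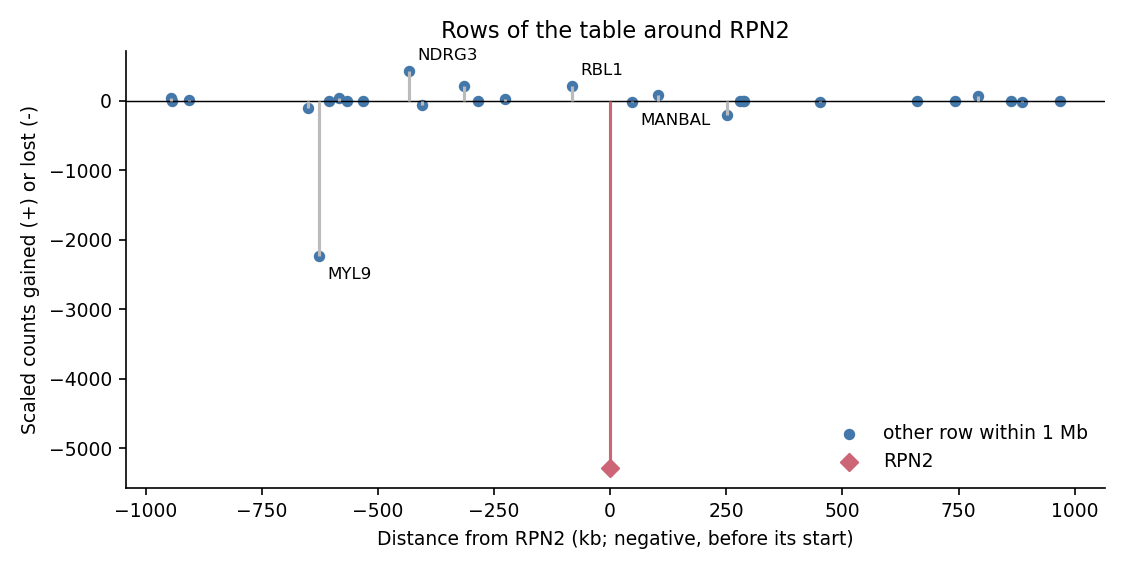
Scaled counts gained or lost in the overexpression library (vertical) for RPN2 (diamond) and the other rows of the table within 1 Mb (circles), by distance from RPN2 in kb. RPN2 lost 5280 and no neighbour gained over 435.

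Elsewhere, 54 rows gained between 0.5 and 2 times the loss of RPN2, and all were genes with 2944 or more control counts. None of them was 2-fold higher, 5 were at least 1.5-fold higher, and 1 lay on the chromosome of RPN2. IGF2BP3, the gene that the labels name, was 1 of the 54, with the fewest control counts (2944) and the highest ratio (1.96). A further 5 rows gained more than 2 times the loss, and whether they hold any of it was not tested. Among the 54, those named as closest in size were CENPF (30585 and 39574 counts), EEF1A1 (481501 and 537821), CLTC (62188 and 74390), CP (6869 and 13138) and TOP2A (38546 and 47995). Among 1614 rows without a position in the annotation, the largest gain was 479 scaled counts, 9.07% of the loss. None of the 54 rows was near absent in the control.

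A few other highly counted rows were also far lower in the overexpression library. Of 6964 rows with at least 1000 control counts, RPN2 included, 7 were at least 5-fold lower and 4 at least 10-fold lower. The 4 were RPN2, APEX1, RCC2 and CEP20, and RPN2 had the lowest ratio. The 5 rows with a log2 difference nearest to that of RPN2, over these 2 libraries, were APEX1, RCC2, CEP20, IARS1 and RNH1. APEX1, a DNA repair endonuclease, had 1922 and 125 counts (-3.65). PIP4P1, which overlaps it, had 23 and 432 counts, a scaled gain of 368 against a loss of 1809. RCC2 had 1403 and 100 counts (-3.43). CEP20 had 1054 and 80 (-3.24). IARS1, the cytosolic isoleucine tRNA ligase, had 4177 and 476 counts (-3.15). RNH1, the ribonuclease inhibitor, had 1088 and 163 (-2.57). RCC2, IARS1 and RNH1 had no overlapping row.

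RefSeq promoter windows, 250 bases before to 50 after a start listed there, were found for 7 of the 10 members (GRCh38.p14), giving 8 windows. The motif CCAAT, searched on both strands, lay in 5 of the 8 and in 34.6% of all 35116 windows. GGGCGG lay in 5 of 8 and 45% of all windows. The windows of MAGT1 overlap and each held CCAAT and GGGCGG, so this gene is counted repeatedly in both figures. The ER stress element, CCAAT and CCACG with 9 bases between, was in none of the 8 and in 0.0769% of all windows. The RPN2 window held none of these.

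Genes that act before, beside and after the enzyme were read from lists that were chosen with earlier results of these data known. Across all genes 0.643% were 1.5-fold lower and 1.02% higher, so lists of these sizes would usually hold few such genes or none. Of 33 genes that build the lipid-linked oligosaccharide, 0 were 1.5-fold different in either direction, and the median log2 difference was 0.00. GFPT1 (0.22), which feeds the hexosamine pathway, lay furthest from 0, followed by ALG10B (0.20) and PGM3 (0.17). ALG10B has a near-identical copy, ALG10, at 401 and 501 counts. All 33 genes of this list lay within 0.22 of 0 in log2 difference.

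After transfer, sugar trimming and the calnexin cycle fold the glycoprotein. None of the 17 genes of that list was 1.5-fold different, 13 were above 0, and the median was 0.08, beside 0.004 for all genes. In the preceding list 18 of 33 genes were above 0, and among Golgi genes 12 of 21. Among the lists below, shares ran from 6 of 16 (other sugar and lipid anchor pathways) to 6 of 9 (ER membrane complex). EDEM3, a mannosidase that marks misfolded glycoproteins, had 4018 and 5819 counts (ratio 1.31, 1.26 to 1.37). LMAN1, a cargo receptor for glycoproteins, had 9316 and 12540 counts (1.22, 1.19 to 1.25). MAN1A1 had 174 and 254 (1.32). None of the 21 Golgi genes was 1.5-fold different, with GNPTG (-0.33), NAGPA (-0.28) and MAN2A1 (0.25) furthest from 0.

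Among translocon and targeting genes, 1 of 30 was 1.5-fold lower and 0 were higher, beside 0.643% and 1.02% of all genes. It was NOMO1, with 295 and 122 counts, but its near-identical copies NOMO2 (2773 and 3223) and NOMO3 (19 and 18) could share its reads. The 3 copies summed to 3087 and 3363 counts, a ratio of 0.986 (0.939 to 1.04). SEC11C (-0.31) and NCLN (-0.19) were next furthest from 0. Of 19 genes of ER-associated degradation, none was 1.5-fold different, and SEL1L (0.24), ERLEC1 (0.18) and SYVN1 (-0.17) lay furthest from 0. None of 24 ER chaperone and unfolded protein response genes passed 1.5-fold, with a median of 0.03. DDIT3, a transcription factor of that response, had 755 and 558 counts (0.669, 0.599 to 0.747), and ATF3 had 600 and 507 (0.765). DNAJB9, a chaperone induced by it, had 797 and 1019 (1.16, 1.05 to 1.27).

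Other sugar and lipid anchor pathways of the ER had 0 of 16 genes past 1.5-fold (median -0.05), with PIGB (0.24), GPAA1 (-0.19) and PIGK (0.18) furthest from 0. The ER membrane complex had 0 of 9, with EMC3 at 2695 and 3657 counts (1.23, 1.17 to 1.29), EMC6 at 63 and 80, and MMGT1 at 2684 and 3171. The magnesium transport list, which includes TUSC3 and MAGT1 because both have been linked to magnesium uptake, had 1 of 14 genes higher. This was TRPM6 at 20 and 60 counts (2.72, 1.61 to 4.76), where 1.02% of all genes were higher by that rule. TRPM7 stood at 4961 and 6019 (1.10).

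**Figure D5:**
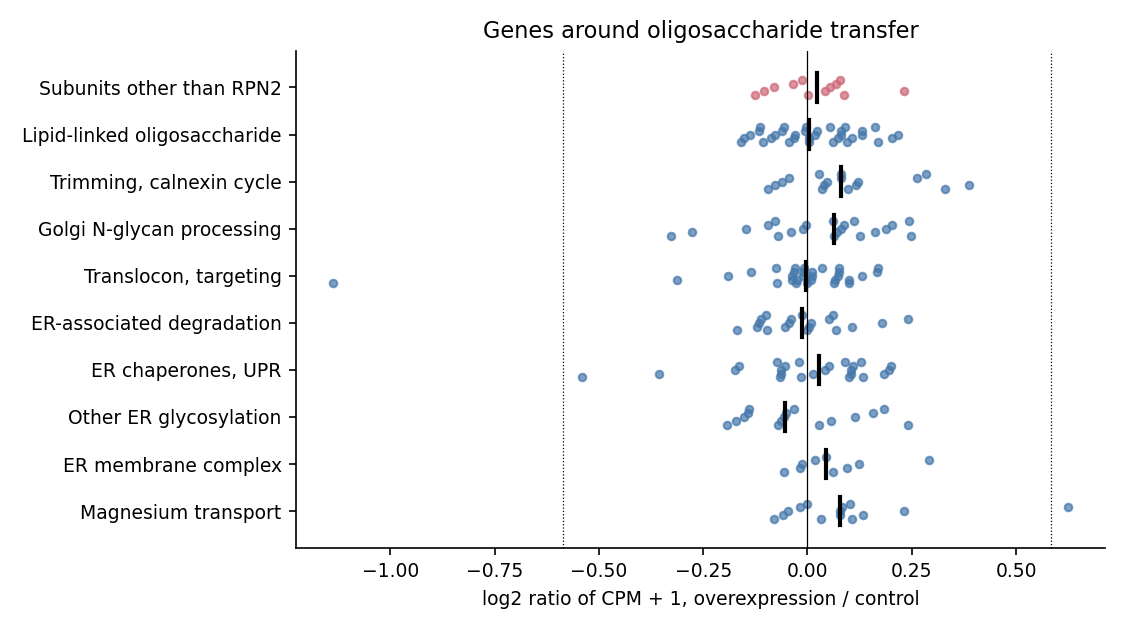
Log2 difference on the CPM plus 1 scale, for each gene with at least 50 counts in 9 lists and for the subunits other than RPN2 (top row), with the median of each as a black bar and 1.5-fold as dotted lines. NOMO1 and TRPM6 lie outside the dotted lines, and the subunits do not.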

How the data were processed

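Poly(A) RNA libraries were strand-marked, per the labels' protocols. Whole-number counts per gene, FPKM and a log2 fold change were deposited by the authors for 1 library per group, per the file headers. The build was GRCh 38, per the submitters' processing notes; for the aligner, counter, strand setting and annotation, no name is given in the sources used here. Counts were scaled by TMM (edgeR 4.0.16, R 4.3.3) to CPM. Ratios are overexpression over control, with 95% exact Clopper-Pearson counting intervals. Log2 ratios use CPM plus 1 and genes with at least 50 counts. Intervals for ratios of ratios use the Poisson variance of the log counts. Reads without molecular identifiers are not independent molecules. Calculations used Python 3.11.15 with scipy 1.17.1 and were tested on simulated data. Positions, exon bases and 31-base words are from GENCODE 29, which can differ from the gene models that were counted. Of 28038 genes, 26424 matched.

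The members and lists were chosen with earlier results of these data known. Named were the 10 members, TMEM258, KRTCAP2 and MLEC, the 3 genes of each list furthest from 0, rows within 1 Mb of RPN2 with at least 50 counts, the 5 closest gains, the 5 rows most like RPN2, IGF2BP3 and FASN. Alternatives were library totals, DESeq2 1.42.0 size factors, FPKM, halved counts, other pseudocounts, count minimums and fold thresholds.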

Additional observations from a re-analysis of the deposited data

How the results depend on the processing

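The RPN2 ratio was 0.0506 by library totals and by FPKM, 0.0511 with DESeq2 size factors, and its interval from halved counts was 0.0429 to 0.0597. The partner median log2 difference ranged from 0.045 to 0.06, and 1 of 10 members was past 1.5-fold, at thresholds of 1.2 and 2 too. In alternatives added after seeing the data, RPN2 summed with the nearest row on each side had a ratio of 0.387 (0.372 to 0.402), and summed with every row within 1 Mb 0.889 (0.879 to 0.899), since each sum adds the counts of those rows. RPN2 summed with overlapping rows gave no value, since no row overlapped it. Of 52 alternative values, 50 stayed near the reported value and the 2 sums above moved. The median of the lipid-linked oligosaccharide list lay at 0.004, and at -0.004 with library totals. Without replicates, leaving out a library was not possible, and counting intervals were widest, relative to the ratio, for KRTCAP2 and RPN2. No paired analysis was possible because each group has 1 library.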
